A study of Mus musculus with 22 samples.

Results

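The levels of 10 genes of the major histocompatibility complex (MHC) presentation pathways were followed across all cultures of a study of mouse embryonic stem (mES) cells that lack Hox function. They were chosen by gene symbol: H2-K1, H2-D1, B2m, Tap1, Tap2 and Psmb8 for class I presentation, and H2-Aa, H2-Ab1, H2-Eb1 and Cd74 for class II presentation. All 10 were found, each under 1 Ensembl identifier, among 55055 genes in the tables of mES cells and endoderm cultures and 55141 genes in the gastruloid tables. The set was selected on a readout, because H2-Eb1 was already known as a leading difference between the genotypes in mES cells. Values of that comparison are therefore given as a description. Levels are in CPM, a gene's counts scaled to the total of its library (counts per M counts), and changes are on the log2 scale, where 1 is 2-fold, with the standard error (SE) of the fit. A gene was called where edgeR's p, adjusted over all genes tested, was under 0.05.

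The data are RNA-seq counts from 22 libraries in 10 groups. Wild-type (wt) and Hox-/- mES cells (2 libraries each) were grown with 100 ng/ml LIF, 3 µM CHIR99021, a GSK-3 inhibitor, and a MEK1/2 inhibitor at 1 µM. Endoderm cultures of both genotypes (3 libraries each) received 100 ng/ml Activin A with 3 µM CHIR99021 at 24 h and at 72 h and were collected at 120 h. Gastruloids, stem cell aggregates used as models of early axis formation, were labelled Activin A (wt and Hox-/-) or Chiron (wt), and each label has 2 libraries at 96 h and 2 at 120 h; doses for them are not given in the sources used here. Endoderm cultures and gastruloids are labelled as mixed cells. The Hox-/- libraries carry the name BADC in their titles, and no source used here gives the number of clones, so genotype and cell line cannot be told apart. No source says that replicates were separate cultures, so p-values measure the spread between these libraries, which may be technical.

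Class I molecules carry peptides from the cytosol to the surface of nearly all nucleated cells. Their heavy chain (H2-K1, H2-D1) pairs with beta-2-microglobulin (B2m), the peptides are cut by the proteasome, whose inducible subunit Psmb8 replaces a constitutive one, and Tap1 with Tap2 pumps them into the endoplasmic reticulum. Class II molecules (H2-Aa and H2-Ab1 of I-A, the beta chain H2-Eb1 of I-E) carry peptides from endosomes, are escorted by the invariant chain Cd74, and are best known from professional antigen-presenting cells. Ciita drives class II genes, Nlrc5 drives class I genes, and interferons raise both pathways. Undifferentiated stem cells are known for low class I levels.

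The class II promoters carry the X and Y boxes bound by RFX and NF-Y, and class I promoters carry in addition sites for NF-kB and for interferon regulatory factors. RefSeq's table of promoters (GRCm38.p6) held windows for 7 of the 10 genes. H2-Ab1, Tap2 and Cd74 had none. Shown here, 5′ to 3′ along the gene, are the 200 bases before the RefSeq start of 2 class II and 2 class I genes, because these groups moved differently between cultures. Capitals mark matches, on either strand, to CCAAT (Y box core), GCAAC (X box core), TGACG (X2 box core), GAANNGAAA (interferon response core) and GGGATTCCC (NF-kB-like).
H2-Eb1, chr17:34305667-34305866, plus strand: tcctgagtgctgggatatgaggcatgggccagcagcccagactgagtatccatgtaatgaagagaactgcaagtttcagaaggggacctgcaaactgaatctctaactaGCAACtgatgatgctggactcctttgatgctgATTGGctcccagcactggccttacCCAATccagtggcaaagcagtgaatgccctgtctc
H2-Aa, chr17:34287824-34288023, minus strand: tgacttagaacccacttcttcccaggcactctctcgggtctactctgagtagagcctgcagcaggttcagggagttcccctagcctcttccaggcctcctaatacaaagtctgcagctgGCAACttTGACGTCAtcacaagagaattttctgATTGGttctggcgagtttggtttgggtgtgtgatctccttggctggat
H2-K1, chr17:34000348-34000547, minus strand: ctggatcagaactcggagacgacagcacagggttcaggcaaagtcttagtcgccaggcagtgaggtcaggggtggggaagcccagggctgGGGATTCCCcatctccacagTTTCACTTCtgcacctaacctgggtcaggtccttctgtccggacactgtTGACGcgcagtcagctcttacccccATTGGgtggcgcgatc
B2m, chr2:122147487-122147686, plus strand: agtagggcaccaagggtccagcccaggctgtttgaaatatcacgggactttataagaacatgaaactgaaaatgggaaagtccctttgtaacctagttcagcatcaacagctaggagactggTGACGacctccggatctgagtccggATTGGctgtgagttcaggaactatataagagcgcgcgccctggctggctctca

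In both class II windows an X box core stood upstream of a Y box core, 33 bases apart in H2-Aa and 32 in H2-Eb1, counted between the first bases of the matches. H2-Eb1 held a second Y box core, 56 bases from its X box core. In B2m and H2-K1 an X2 box core stood 25 bases from a Y box core, in H2-D1 also 25 and in H2-Aa 26. H2-K1 and H2-D1 shared an NF-kB-like match followed by an interferon response core. This stretch is printed for both because both heavy chains had less RNA in Hox-/- than in wt Activin A gastruloids at 120 h. Elsewhere they did not move together: at 96 h H2-D1 was higher in Hox-/- (log2 0.36) and H2-K1 lower (log2 -0.13). The part of this stretch in these levels was not tested. In H2-D1 it lies before the RefSeq start but within an annotated exon of the gene.
H2-K1, chr17:34000429-34000457, minus strand: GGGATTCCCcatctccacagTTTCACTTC
H2-D1, chr17:35262924-35262952, plus strand: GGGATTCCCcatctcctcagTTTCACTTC

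Of these 29 bases, 28 were the same, with the difference A17T counted from 1 at the 5′ end with the base of H2-K1 first. Of all 32851 windows in the table, 33.8% held CCAAT in the 250 bases before the start, 29.9% GCAAC, 17.8% TGACG, 6.31% GAANNGAAA and 0.301% GGGATTCCC. The windows of B2m, H2-Eb1, H2-Aa, Tap1 and Psmb8 held neither of the last pair, which says only that these letters are absent there. Other spellings and spacings were not searched for, such as gaaactgaaa and gggaaagtccc in the printed B2m stretch.

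The positions are those of the mm10 genome. B2m is at chr2:122147686-122153083. The MHC region on chr17 holds H2-K1 (33996017-34000347, minus strand), Tap1 (34187553-34197225), Psmb8 (34197721-34201454), Tap2 (34203527-34216321), H2-Ab1 (34263209-34269419), H2-Aa (34282744-34287823, minus strand), H2-Eb1 (34305867-34316674) and H2-D1 (35262730-35267499). Cd74 is at chr18:60803848-60812652. All are protein-coding genes. H2-K1 and H2-D1 are close relatives of the H2-Q and H2-T genes, and how the authors counted shared reads is not given, so their counts are uncertain to that extent. The gene span of B2m lies within that of Patl2 on the opposite strand, and Tap1 shares 212 bases with Psmb9, its neighbour on the other strand. Patl2 stood at 8.53 CPM in wt and 11.6 CPM in Hox-/- mES cells, close to B2m there, and at 1.56 CPM or less in every other group; without a known strand setting, reads of such pairs cannot be told apart.

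Library totals ran from 9.11 to 28.82 M counts, from 14.95 to 28.82 M in gastruloids at 96 h and from 9.11 to 11.93 M at 120 h, so time and depth go together. The 39 Hox genes, the targets of the genotype, summed to 33.06 CPM in wt and 0.896 CPM in Hox-/- mES cells, and in Hox-/- cultures to 3.01% (endoderm), 16.0% (Activin A, 96 h) and 5.65% (Activin A, 120 h) of wt. Marker genes of leukocytes and antigen-presenting cells were looked for because these cells carry class II molecules. Of 22 such markers, 6 to 9 per group were above the floor of 3 counts per library, with a summed level of 8.65 to 20.2 CPM outside mES cells and 214 to 252 CPM in mES cells, where Laptm5 alone stood at 222 CPM (wt) and 189 CPM (Hox-/-). Itgax, C1qa and Ms4a1 were at 0 in all 10 groups and Ptprc in 8. Others were detected. In wt and Hox-/- mES cells Cd68 stood at 13.9 and 14.5 CPM, Itgam at 2.86 and 3.38, Cd79b at 2.38 and 2.54, and Cd3e at 2.67 and 1.82 CPM. Cd68 stood at 4.21 to 12.2 CPM elsewhere, and Flt3 at 3.32 CPM in wt and 10.2 CPM in Hox-/- endoderm. The labels were also set against markers. The 10 pluripotency markers summed to 7920 and 7560 CPM in wt and Hox-/- mES cells and to at most 1690 CPM elsewhere, and the 10 definitive endoderm markers to 33.9 to 38.1 CPM in wt and 28.6 to 28.9 CPM in Hox-/- mES cells against 490 CPM in wt and 238 CPM in Hox-/- endoderm cultures.

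The 6 class I genes were low in mES cells and high in endoderm cultures and Activin A gastruloids at 96 h. The class II sum was highest in Hox-/- mES cells, and most of it was H2-Eb1, whose difference there led to the choice of the set. Summed class I levels were 29.3 and 24.9 CPM in wt and Hox-/- mES cells, 408.8 and 453.5 CPM in endoderm, 319.0 and 424.1 CPM in Activin A gastruloids at 96 h, 85.5 and 61.3 CPM at 120 h, and 125.2 and 57.9 CPM in Chiron gastruloids at 96 h and 120 h. Summed class II levels were 16.4 and 43.9 CPM in wt and Hox-/- mES cells, 7.38 and 5.56 CPM in endoderm, and between 1.41 and 3.37 CPM in every gastruloid group. The class II sum exceeded the class I sum in 1 group, Hox-/- mES cells, where H2-Eb1 alone stood at 38.3 CPM. This therefore restates the level that chose the set. H2-Aa was also highest there (0.85 CPM), while Cd74 was highest in wt endoderm (4.28 CPM) and H2-Ab1 in wt Activin A gastruloids at 120 h (3.16 CPM). In such bulk samples, fewer cells that express a gene and less RNA per cell cannot be told apart.

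**Figure D1:**
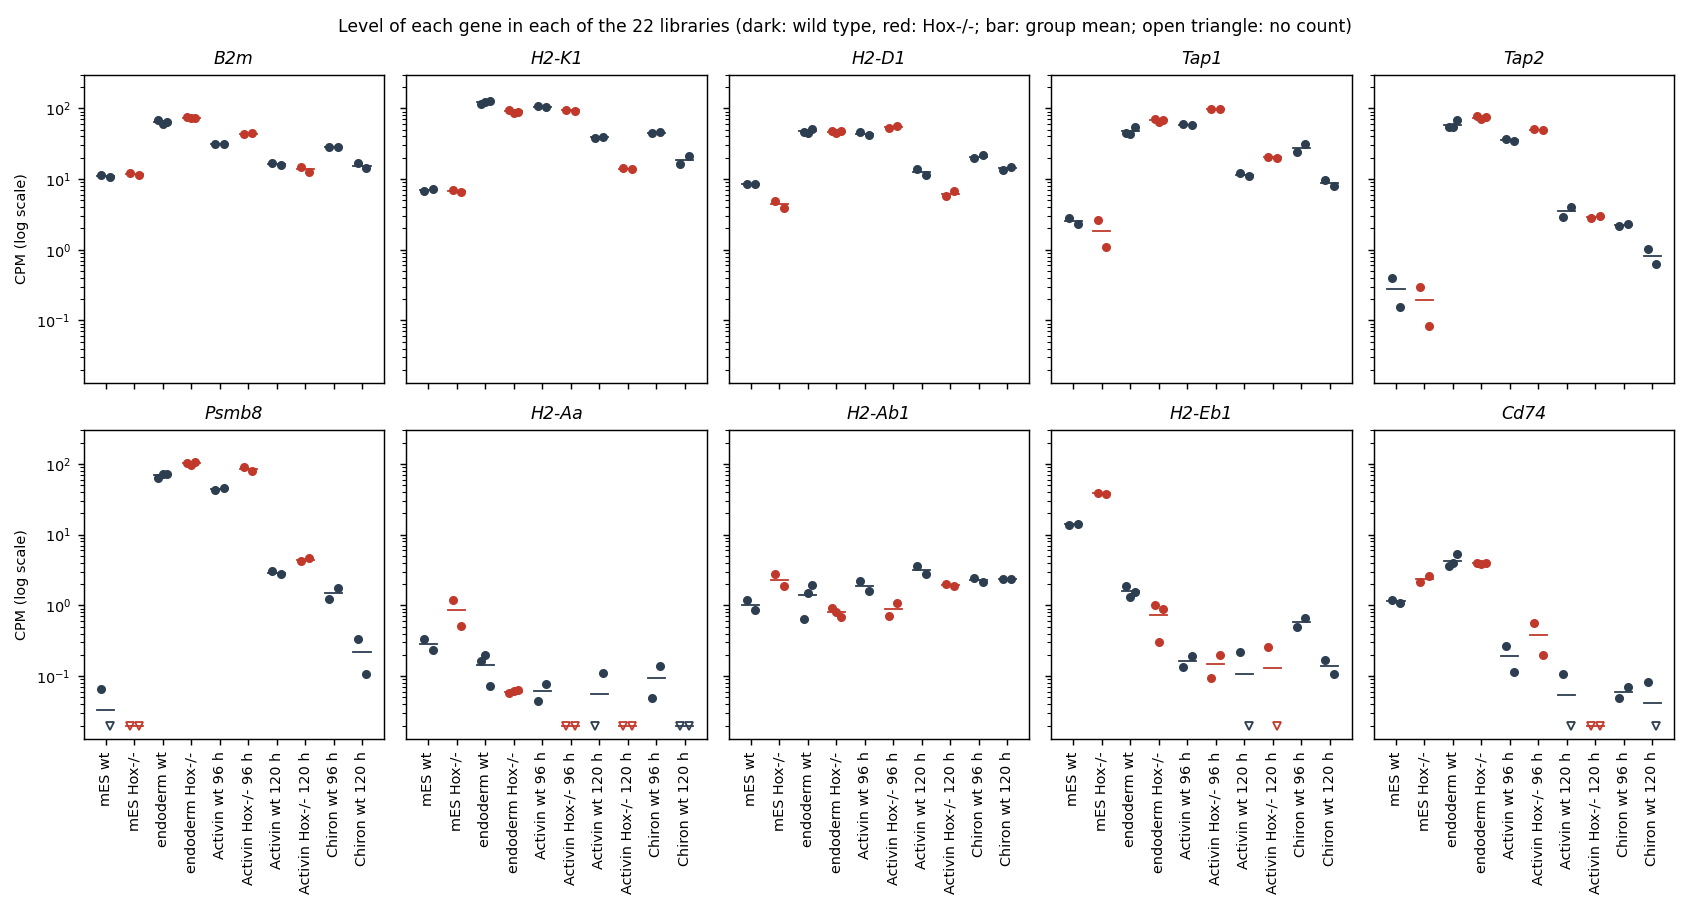
CPM of each of the 10 genes (log axis) in each of the 22 libraries, by group; points are libraries, bars group means and open triangles libraries with no count. H2-Eb1 stood highest in mES cells (13.7 and 14.2 CPM in wt, 39.4 and 37.2 CPM in Hox-/-), and the class I genes stood highest in endoderm cultures and Activin A gastruloids at 96 h.

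**Figure D2:**
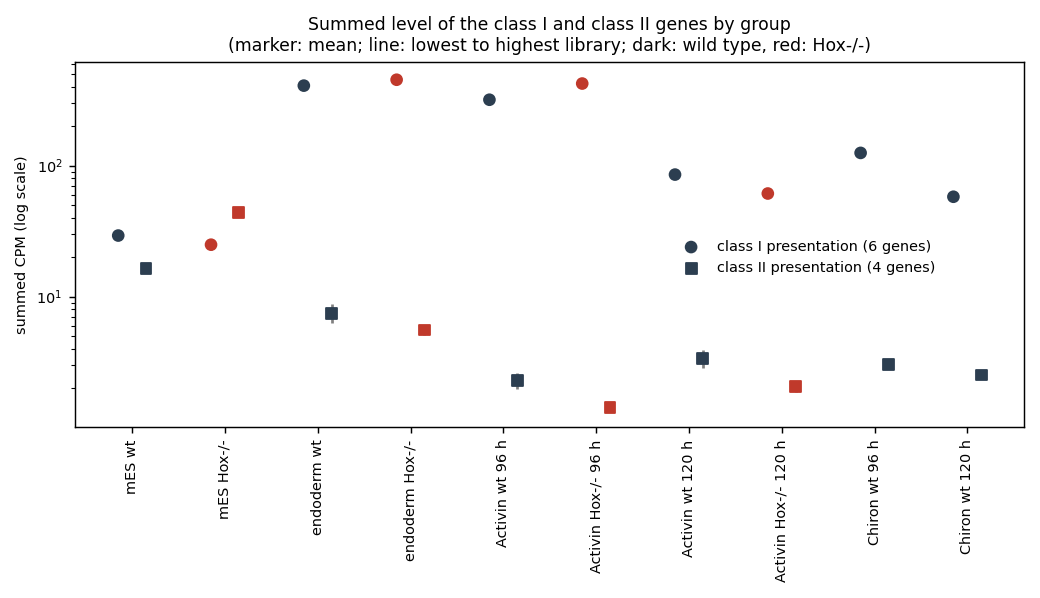
Summed CPM (log axis) of the 6 class I and 4 class II genes in each group; markers are means over 2 or 3 libraries and lines run from the lowest to the highest library. The class II sum (43.9 CPM) lay above the class I sum (24.9 CPM) in Hox-/- mES cells and below it in the other 9 groups. H2-Eb1 alone, whose level there led to the choice of the set, stood at 38.3 CPM in Hox-/- mES cells.

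FPKM, which scales by transcript length, allows genes to be compared within a group. In wt mES cells B2m led with an FPKM of 14.63, followed by H2-Eb1 at 9.23, H2-K1 at 4.56 and H2-D1 at 4.24. In Hox-/- mES cells H2-Eb1 led with 24.4, ahead of B2m at 15.3, and the other class II chains were far lower, with 0.821 for H2-Aa and 2.12 for H2-Ab1. The 2 chains of I-A and the beta chain of I-E were present at unequal RNA levels. In endoderm cultures and in Activin A gastruloids at 96 h the order was led by B2m, H2-K1 and Psmb8: Psmb8 had the highest FPKM in Hox-/- endoderm (98.2, against 93.4 for B2m) and in Hox-/- gastruloids (79.8), H2-K1 in wt gastruloids (70.3), and B2m in wt endoderm (84.0).

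In mES cells the class II genes were higher in Hox-/- than in wild type, and of the class I genes H2-D1 was lower. H2-Eb1 was at 13.7 and 14.2 CPM in the wt libraries and at 39.4 and 37.2 CPM in the Hox-/- libraries. The groups did not overlap, and the ratio was 2.75-fold (log2 1.46, SE 0.0504 from the spread between libraries). Cd74, the invariant chain, was at 1.2 and 1.09 CPM in wt and at 2.17 and 2.6 CPM in Hox-/- (log2 1.06, SE 0.149). H2-Ab1 was at 1.2 and 0.855 CPM against 2.76 and 1.85 CPM (log2 1.17, SE 0.378). H2-Aa stood near its detection limit, with 5 and 3 counts in wt and 16 and 6 in Hox-/-. In each of these 4 genes both Hox-/- libraries lay above both wt libraries. The share of all genes that separated in this way was not computed. The count of 4 therefore has no background beside it, and it includes H2-Eb1, which led to the choice of the set.

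Among the class I genes, H2-D1 was lower in Hox-/- mES cells, at 4.86 and 3.87 CPM against 8.37 and 8.63 CPM (log2 -0.96, SE 0.166). B2m (11.3 and 10.6 CPM in wt, 12.3 and 11.3 CPM in Hox-/-) overlapped narrowly, and H2-K1 (6.71 and 7.15 CPM against 7.02 and 6.47 CPM) overlapped. Tap1 (2.79 and 2.33 CPM against 2.61 and 1.09 CPM) also overlapped, and its direction turned without Hox-/- replicate 2 (log2 0.03). Tap2 had 6 and 2 counts in wt and 4 and 1 in Hox-/-. Psmb8 had 1 count in the 4 mES libraries together, which allows at most 0.252 CPM in the shallower Hox-/- library. Ciita, the class II transactivator, stood at 3.07 CPM in wt and 4.32 CPM in Hox-/- mES cells and at 0.5002 CPM or less in every other group, and Nlrc5 stood at 0.144 and 0.121 CPM. The summed level of the leukocyte markers was 244 to 252 CPM in wt and 214 to 215 CPM in Hox-/- mES cells.

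From mES cells to endoderm cultures the class I genes rose in both genotypes, and H2-Eb1 stood lower in endoderm. Of the 9 members in one fit over both cultures, 7 were higher in wt endoderm, where 41.6% of all genes tested were higher. In Hox-/- cultures 7 were higher, beside 42.7% of all genes. In both genotypes the 7 include Psmb8 and Tap2, which had at most 6 counts in any mES library. These 2 genes passed the filter on expression through the endoderm libraries alone, so they could be called only as higher. Leaving out H2-Eb1, no member was called lower in wild type and H2-Ab1 alone was in Hox-/-, beside 38.3% and 37.9% of all genes. The level of H2-Eb1 in mES cells led to the choice of the set, so its change is given as a description with no test. H2-K1 rose 16.2-fold in wild type, from 6.71 and 7.15 CPM in mES cells to 116, 121 and 128 CPM in endoderm (adjusted p = 5.02e-19, edgeR), and 12.6-fold in Hox-/- (2.2e-18). B2m rose 5.37-fold and 5.87-fold, and H2-D1 5.16-fold and 10.1-fold.

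The transporter and proteasome genes had fold values above those of B2m and H2-D1. Tap1 rose 16.9-fold in wild type and 33.4-fold in Hox-/-. Tap2 went from 0.398 and 0.155 CPM in wt mES cells to 53.7, 54.3 and 68.9 CPM in wt endoderm, a log2 change of 7.53 (SE 0.244). Psmb8 was at the floor in mES cells, and its level in endoderm was at least 319-fold higher in wild type and at least 429-fold higher in Hox-/-. No library of either culture overlapped for these genes.

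H2-Eb1 stood 9.68-fold lower in wt endoderm than in wt mES cells, at 1.87, 1.32 and 1.53 CPM, and 54.0-fold lower in Hox-/- endoderm, at 1.02, 0.308 and 0.882 CPM. No endoderm library overlapped with an mES library. H2-Ab1 fell 3.04-fold in Hox-/- (adjusted p = 5.43e-04, edgeR) and did not pass in wild type (log2 0.32, SE 0.401). Cd74 rose 3.44-fold in wild type, to 3.57, 4.02 and 5.25 CPM, and 1.57-fold in Hox-/-. The Cd74 call in Hox-/- was lost with DESeq2 (adjusted p = 0.0868) and without Hox-/- mES replicate 1 (adjusted p = 0.119). H2-Aa was not tested; it held 1 to 3 counts in each endoderm library. Both cultures come from separate tables, so culture and table cannot be told apart, and the difference between the genotypes in these changes was not tested because the mES values chose the members.

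In endoderm cultures Hox-/- libraries had more RNA of Psmb8, Tap1, Tap2 and B2m and less of H2-K1 and H2-Eb1 than wild type, by 1.15-fold to 2.07-fold. Of 9 members tested, 4 were higher and 2 lower; 23.1% of all 14975 genes tested were higher and 23.1% lower. Psmb8 was at 62.5, 71.6 and 72.8 CPM in wt and at 102, 97.2 and 108 CPM in Hox-/- (log2 0.57, SE 0.0652, adjusted p = 6.8e-06, edgeR). Every Hox-/- library lay above every wt library. Tap1, at 45.1, 43.1 and 54.1 CPM against 69.6, 64.5 and 67.8 CPM, rose by log2 0.51 (SE 0.0779, adjusted p = 9.77e-05). Tap2 (1.26-fold) and B2m (1.15-fold, from 68.6, 59.8 and 64 CPM to 74.4, 71.9 and 73.3 CPM) rose less. B2m lost its call without wt replicate 2 (adjusted p = 0.0834), and both lost it on log2(FPKM + 1) (adjusted p = 0.0671 for B2m, 0.0717 for Tap2).

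H2-K1 fell in Hox-/- endoderm, from 116, 121 and 128 CPM to 93.2, 87.1 and 90 CPM (log2 -0.43, SE 0.0542, adjusted p = 1.99e-05, edgeR). The heavy chain was called lower and its partner B2m higher, and the other heavy chain H2-D1, at 46.2, 45.3 and 51.3 CPM against 48.1, 45.1 and 47.1 CPM, did not pass the test (log2 -0.02, SE 0.0657). H2-Eb1 fell by 1.05 on the log2 scale (SE 0.359, adjusted p = 0.0266) on 20 to 23 counts per wt library and 5 to 18 per Hox-/- library. That call was lost with DESeq2 (adjusted p = 0.0861) and without wt replicate 1 (0.0902), wt replicate 3 (0.0517) or Hox-/- replicate 2 (0.103). H2-Ab1 (log2 -0.79, SE 0.364) and Cd74 (log2 -0.11, SE 0.175) did not pass, and H2-Ab1 passed without wt replicate 1 (log2 -1.11, adjusted p = 0.0143). In mES cells H2-Eb1 stood higher in Hox-/-, but that value led to the choice of the set, so the difference between the cultures was not tested. The 10 fibroblast markers summed to 288 to 353 CPM in wt and 537 to 555 CPM in Hox-/- endoderm. Their members differed: Col1a1 (138 against 345 CPM) and Pdgfrb (33.0 against 84.9 CPM) were higher in Hox-/-, while Pdgfra (69.6 against 29.6 CPM) and Thy1 (1.75 against 0.666 CPM) were lower, as were Col1a2, Postn and Dcn. Pluripotency markers summed to 946 to 1100 CPM against 294 to 307 CPM and definitive endoderm markers to 476 to 502 CPM against 232 to 245 CPM. The part of these markers in the results was not tested.

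In Activin A gastruloids at 96 h, 5 class I genes were higher in Hox-/- than in wild type, and H2-K1 and H2-Ab1 were lower. All 7 members that could be tested were called; 22.2% of all 16831 genes were higher and 16.7% lower. Psmb8 rose 2.03-fold, from 43.2 and 45.1 CPM to 91.7 and 80.2 CPM (log2 1.02, SE 0.0547, adjusted p = 1.6e-21, edgeR). Tap1 rose from 59.1 and 57.5 CPM to 98.3 and 96.4 CPM, B2m from 30.8 and 31.6 CPM to 43.4 and 44.3 CPM, Tap2 from 37.1 and 34.8 CPM to 50.9 and 48.7 CPM, and H2-D1 from 45.7 and 41.8 CPM to 51.9 and 56.3 CPM. In these 5 genes both Hox-/- libraries lay above both wt libraries. On the log2 scale the rises were 0.79 (SE 0.0479) for Tap1, 0.54 (SE 0.0624) for B2m, 0.53 (SE 0.0609) for Tap2 and 0.36 (SE 0.06) for H2-D1. With limma on log2(FPKM + 0.1), Tap2 (adjusted p = 0.16) and H2-D1 (adjusted p = 0.159) lost their calls.

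H2-K1 was at 108 and 103 CPM in wt and at 94.8 and 91.5 CPM in Hox-/- gastruloids at 96 h (log2 -0.13, SE 0.0447, adjusted p = 0.0209, edgeR). This small fall was lost with DESeq2 (adjusted p = 0.284), with counts thinned to the smallest library (0.455), without wt replicate 1 (0.196) and without Hox-/- replicate 2 (0.13). H2-Ab1 fell 2.09-fold on 49 and 41 counts against 15 and 16, and lost its call with DESeq2 (adjusted p = 0.114), without wt replicate 1 (0.084) and without Hox-/- replicate 1 (0.145). The other class II genes were too low to be tested: H2-Aa had no count in either Hox-/- library, H2-Eb1 had 2 to 5 counts per library and Cd74 3 to 12. Cell type markers also differed at 96 h: definitive endoderm markers summed to 754 to 830 CPM in wt and 191 to 193 CPM in Hox-/-, pluripotency markers to 1680 to 1700 CPM and 1190 CPM, fibroblast markers to 53.8 to 57.1 CPM and 89.1 CPM, and caudal mesoderm markers to 2140 to 2240 CPM and 2720 to 2760 CPM. The fibroblast markers were split: Pdgfrb (24.6 against 55.3 CPM) and Col1a2 (6.82 against 15.8 CPM) were higher in Hox-/-. Col3a1, Lum and Fap, at 0.284 CPM or less, were also higher. Pdgfra (20.7 against 15.4 CPM) and Thy1 (2.27 against 1.42 CPM) were lower, as were Col1a1, Postn and Dcn. The part of these markers in the results was not tested.

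At 120 h in Activin A gastruloids both heavy chains were lower in Hox-/-, and Tap1 and Psmb8 were higher. Of the 7 members tested, 2 were higher and 2 lower, where 24.9% of all genes were higher and 25.5% lower. H2-K1 fell from 38 and 39.3 CPM to 14.1 and 13.7 CPM (log2 -1.36, SE 0.0946, adjusted p = 1.87e-17, edgeR), and H2-D1 from 13.9 and 11.3 CPM to 5.69 and 6.73 CPM (log2 -0.92, SE 0.16, adjusted p = 3.24e-06). Tap1 rose from 12.2 and 10.9 CPM to 20.6 and 19.7 CPM (log2 0.92, SE 0.115, adjusted p = 2.36e-09). No library of the 2 genotypes overlapped in these 3 genes.

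Psmb8 was at 3.03 and 2.74 CPM in wt and at 4.22 and 4.68 CPM in Hox-/- at 120 h (adjusted p = 0.0114, edgeR), and its call was lost without wt replicate 2 (0.0791) or Hox-/- replicate 2 (0.0804). B2m (log2 -0.14, SE 0.119), Tap2 (log2 -0.15, SE 0.25) and H2-Ab1 (log2 -0.60, SE 0.311) did not pass. H2-Ab1 passed with thinned counts (adjusted p = 0.0492) and on log2(FPKM + 1) (0.0205). H2-Aa, H2-Eb1 and Cd74 were at the floor in both genotypes at 120 h. At 120 h definitive endoderm markers summed to 525 to 546 CPM in wt and 193 to 196 CPM in Hox-/-, pluripotency markers to 139 to 142 CPM and 43.5 to 46.5 CPM, neural tube markers to 105 to 106 CPM and 32.8 to 35.3 CPM, and caudal mesoderm markers to 876 to 908 CPM and 1600 CPM. The 10 endothelial markers summed to 89.9 to 97.2 CPM in wt and 61.7 to 63.8 CPM in Hox-/-, but this fall was that of Sox17 (57.4 against 3.78 CPM), which is also a definitive endoderm marker. Kdr (27.8 against 45.4 CPM), Cdh5 (1.14 against 2.61 CPM) and Tie1 (0.76 against 2.43 CPM) were higher in Hox-/-, as were Tek, Erg, Esam and Cldn5, while Pecam1 and Emcn were lower. The part of these markers in the results was not tested.

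**Figure D3:**
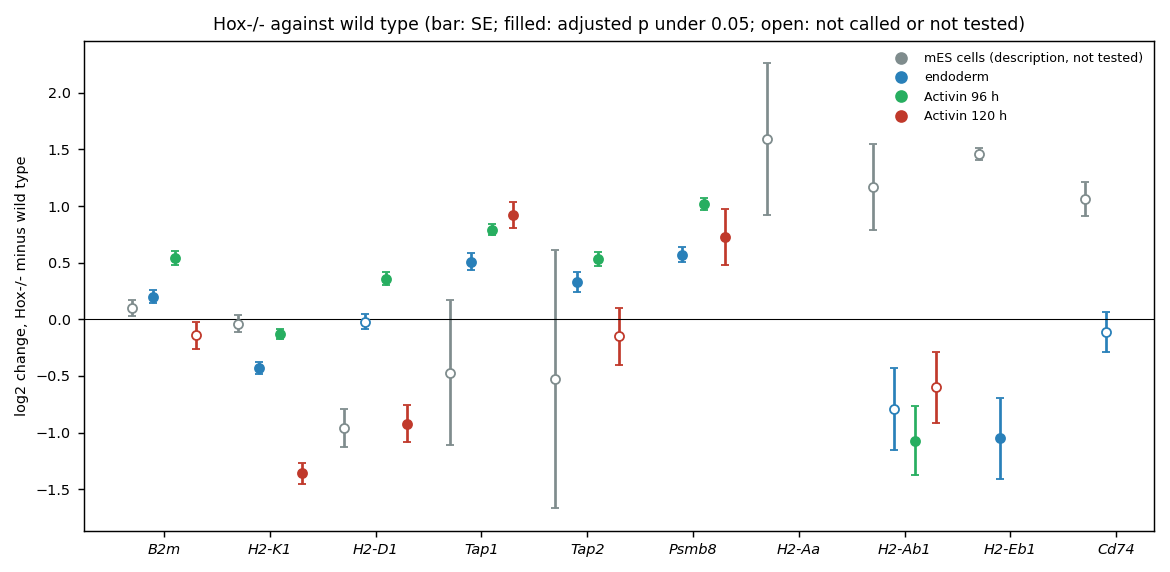
Log2 change (Hox-/- minus wild type, linear axis of log2 values) of each gene in mES cells, endoderm cultures and Activin A gastruloids at 96 h and 120 h; bars are SE, filled points were called, open points were not called or, in mES cells, not tested. Psmb8 and Tap1 lay above 0 in the 3 tested cultures and H2-K1 below 0, from -0.13 to -1.36.

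The genotype effect differed between the times for 4 members, tested as an interaction in one fit. None of 7 was higher and 4 were lower, where 18.7% of all genes were higher and 20.2% lower. The interaction was -1.27 for H2-D1 (SE 0.17, adjusted p = 2.65e-08, edgeR), -1.24 for H2-K1 (SE 0.105, adjusted p = 6.26e-14), -0.68 for B2m (SE 0.134, adjusted p = 4.84e-05) and -0.68 for Tap2 (SE 0.259, adjusted p = 0.0337) on the log2 scale. H2-D1 thus went from higher in Hox-/- at 96 h to lower at 120 h. Tap1 (0.12, SE 0.127) and Psmb8 (-0.29, SE 0.262) did not pass. The Tap2 call was lost with DESeq2 (adjusted p = 0.101), with no filter (0.112) and in 5 fits that each left out 1 library: wt 96 h replicate 2 (0.0583), Hox-/- 96 h replicate 1 (0.0544), wt 120 h replicate 2 (log2 -0.42, 0.379), Hox-/- 120 h replicate 1 (0.122) and Hox-/- 120 h replicate 2 (0.0817). On log2(FPKM + 1) Psmb8 passed (-0.53, adjusted p = 0.018).

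From 96 h to 120 h every class I member fell in Activin A gastruloids of both genotypes, and H2-Ab1 rose. In wild type 1 member was higher and 6 were lower (37.2% and 37.8% of all genes). Hox-/- gastruloids gave the same numbers, 1 and 6, beside 34.9% and 37.6%. Psmb8 fell 16.1-fold in wild type and 19.7-fold in Hox-/-, and Tap2 10.8-fold and 17.3-fold. Tap1 fell 5.32-fold and 4.88-fold. H2-D1 fell 3.64-fold, H2-K1 2.88-fold and B2m 2.02-fold in wild type, and 8.79-fold, 6.79-fold and 3.24-fold in Hox-/-. H2-Ab1 went from 2.18 and 1.59 CPM to 3.57 and 2.74 CPM in wild type (log2 0.68, SE 0.272, adjusted p = 0.0219, edgeR) and by log2 1.15 in Hox-/- (SE 0.357, adjusted p = 0.00383). Both H2-Ab1 calls were lost with DESeq2 (adjusted p = 0.235 and 0.0575) and with thinned counts (0.237 and 0.113); without wt 96 h replicate 2 the wt value was 0.195, without wt 120 h replicate 1 it was 0.252, and without Hox-/- 96 h replicate 1 the Hox-/- value was 0.0819. Over the same interval pluripotency markers went from a mean sum of 1690 to 140.0 CPM in wild type and from 1190 to 45.0 CPM in Hox-/-, caudal mesoderm markers from 2190 to 892 CPM and from 2740 to 1600 CPM, and fibroblast markers from 55.5 to 193 CPM and from 89.1 to 204 CPM. Of the fibroblast markers, Thy1 fell in both genotypes (2.27 to 0.927 CPM and 1.42 to 0.773 CPM). Col1a2 fell in Hox-/- (15.8 to 2.56 CPM), as did Dcn, Lum and Fap, at 0.184 CPM or less. The part of these markers in the results was not tested.

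Class I RNA also fell in Chiron gastruloids between 96 h and 120 h. Of 7 members tested, 0 were higher and 6 lower; 28.5% of all genes were higher and 33.2% lower. The falls were 6.87-fold for Psmb8, 3.4-fold for Tap1, 2.85-fold for Tap2, 2.64-fold for H2-K1, 1.95-fold for B2m and 1.59-fold for H2-D1. Each of these 6 genes had both libraries at 120 h below both at 96 h. H2-Ab1 stayed at 2.43 and 2.15 CPM against 2.35 and 2.33 CPM (log2 -0.06, SE 0.263).

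Wild-type Activin A gastruloids had more class I RNA than Chiron gastruloids at 96 h, above all of Psmb8 and Tap2. Of 7 members tested, 5 were higher and 0 lower in Activin A, beside 31.3% and 30.2% of all 17305 genes. Psmb8 was at 43.2 and 45.1 CPM in Activin A and at 1.22 and 1.77 CPM in Chiron gastruloids, a 27.4-fold difference (log2 4.78, SE 0.128, adjusted p = 1.06e-19, edgeR). Tap2 was at 37.1 and 34.8 CPM against 2.14 and 2.32 CPM, a 15.3-fold difference. These 2 genes had the largest fold values of the 7. H2-K1 was 2.25-fold, H2-D1 2.01-fold and Tap1 2.01-fold higher in Activin A. B2m, at 30.8 and 31.6 CPM against 27.9 and 28.7 CPM, did not pass (log2 0.08, SE 0.0744), nor did H2-Ab1 (log2 -0.35, SE 0.227). Chiron replicates at 96 h differed more than any other pair (chi-square over its degrees of freedom 10.3, across genes). Cell type markers differed between the treatments at 96 h: mean sums in Activin A and Chiron gastruloids were 1690 and 330.0 CPM for pluripotency, 792 and 176 CPM for definitive endoderm, 68.8 and 7.11 CPM for endothelium, of which Sox17 made up 61.0 CPM in Activin A, and 2190 and 2680 CPM for caudal mesoderm. Their part in these results was not tested.

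At 120 h 3 of the 7 were higher in Activin A and 0 lower, where 20.3% of all genes were higher and 21.6% lower. Psmb8 (11.6-fold), Tap2 (3.97-fold) and H2-K1 (2.04-fold) were called. The Psmb8 value rests on 4 and 1 counts in the Chiron libraries. H2-D1 (13.9 and 11.3 CPM against 13.3 and 15 CPM), B2m and H2-Ab1 did not pass, and Tap1 (log2 0.34, SE 0.177) passed with thinned counts (adjusted p = 0.045) and in a fit of the compared groups alone (0.0488). The treatment effect changed between the times for 3 members, with 0 higher and 3 lower beside 21.7% and 18.0% of all genes. The interaction was -1.94 for Tap2 (SE 0.443, adjusted p = 0.00114, edgeR), -1.21 for H2-D1 (SE 0.159, adjusted p = 1.56e-06) and -0.66 for Tap1 (SE 0.198, adjusted p = 0.00998). Without Chiron 120 h replicate 1 H2-D1 alone was called; Tap1 then had an adjusted p of 0.176 and Tap2 of 0.1 (edgeR). Tap1 also lost its call without wt Activin A 120 h replicate 2 (0.0632), and on log2(FPKM + 1) with limma Psmb8 (-2.54, adjusted p = 0.00029) and H2-K1 (-0.25, 0.0291) passed while Tap1 did not (0.0922). The wt Activin A libraries serve in this comparison and in those between genotypes, which therefore share them.

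**Figure D4:**
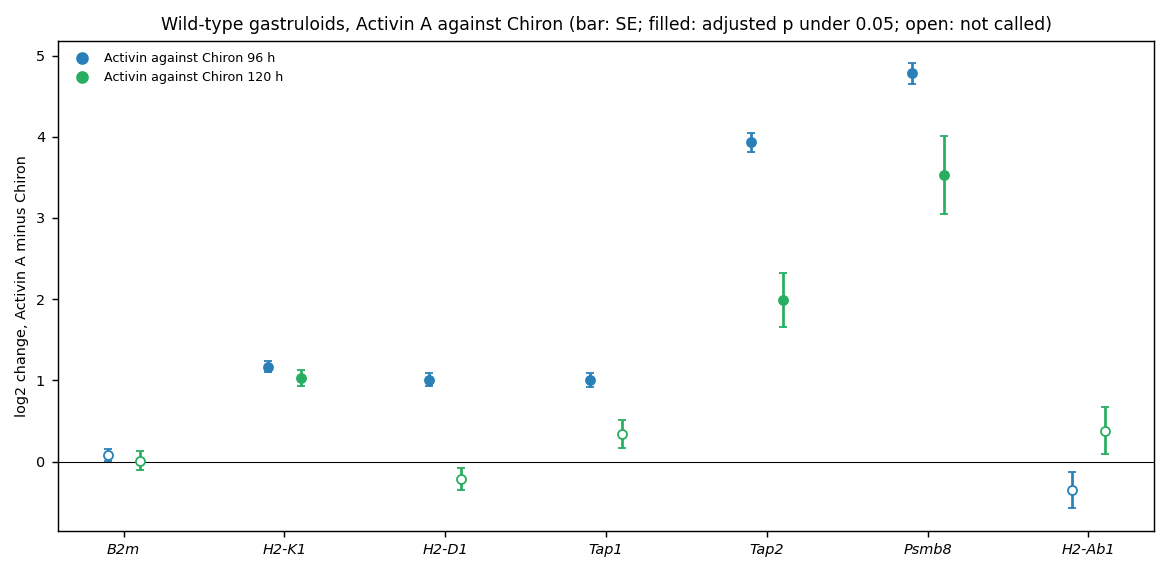
Log2 change (Activin A minus Chiron, wild-type gastruloids) of the 7 members tested at 96 h and 120 h; bars are SE, filled points were called and open points not. Psmb8 (4.78 at 96 h, 3.53 at 120 h) and Tap2 (3.93 and 1.99) lay highest, and B2m lay near 0 at both times (0.08 and 0.01).

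Other genes of the pathway were read from lists of the same kind. All counts of called genes between genotypes, here and for neighbours, stand beside the shares of all genes called higher and lower, which were 23.1% and 23.1% in endoderm, 22.2% and 16.7% at 96 h, and 24.9% and 25.5% at 120 h. Of the immunoproteasome and its activator (Psmb9, Psmb10, Psme1, Psme2), 4 of 4 were higher in Hox-/- endoderm, 4 of 4 at 96 h and 0 of 4 at 120 h (0 lower at each), with a median log2 change of 0.39, 0.57 and 0.10 beside 0.00, 0.03 and -0.02 over all genes. In Activin A against Chiron gastruloids at 96 h 4 of 4 were higher, beside 31.3% of all genes. Of the 3 constitutive catalytic subunits (Psmb5, Psmb6, Psmb7) none was higher in Hox-/- in these 3 comparisons, and 1, 1 and 2 were lower. Of 6 genes of peptide loading and trimming, 2, 3 and 3 were higher and 0 lower. Erap1, which trims peptides in the endoplasmic reticulum, was at 26.9 CPM ± 0.535 (SD, n = 2) in Hox-/- gastruloids at 120 h and at 12.6 CPM ± 0.293 in wt (2.3-fold, adjusted p = 8.13e-14, edgeR). Tapbp, tapasin, fell 7.28-fold from 96 h to 120 h in wt Activin A gastruloids, from 176 CPM to 25.4 CPM.

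The other class I genes (18 listed, 13 or 14 tested) were counted in the same way. In endoderm 0 were higher and 2 lower in Hox-/-, at 96 h 5 higher and 1 lower, and at 120 h 1 higher and 7 lower (median log2 -0.15, -0.03 and -0.99, beside 0.00, 0.03 and -0.02 over all genes). H2-Q6 fell 4.99-fold at 120 h, from 2.45 CPM to 0.460 CPM, and Cd1d1, which presents lipids, fell 5.29-fold, from 2.34 CPM to 0.403 CPM. H2-Q4 had an interaction of -1.12 between genotype and time (SE 0.118, adjusted p = 5.74e-11, edgeR). Between cultures H2-M5 was at 66.6 CPM in wt and 56.3 CPM in Hox-/- mES cells and at 1.15 CPM in wt endoderm, 60.4-fold lower (adjusted p = 1.03e-17, edgeR).

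Of the 10 further class II genes, 5 to 7 were tested in these comparisons, 0 were higher in Hox-/- and 3, 3 and 2 were lower in endoderm, at 96 h and at 120 h (median log2 -0.65, -0.33 and -0.39). H2-Oa, a chain of the DO regulator of peptide exchange, was at 1.84 CPM in wt and 0.548 CPM in Hox-/- gastruloids at 96 h (3.2-fold lower, adjusted p = 4.97e-05, edgeR). It was higher, at 5.81 CPM, in Chiron gastruloids at that time. Ctss, the cathepsin that degrades the invariant chain in antigen-presenting cells, had a group mean of 0.0332 CPM at most.

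Of 13 transcription regulators of MHC genes, 12 were tested. In endoderm 6 were higher and 1 lower in Hox-/-, at 96 h 2 and 1, and at 120 h 6 and 2 (median log2 0.25, 0.04 and 0.14). The counts at 96 h lie below the shares of all genes. Nfya, a subunit of the factor that binds CCAAT, rose 2.16-fold between 96 h and 120 h in Hox-/- gastruloids, from 46.8 to 102 CPM, and its genotype effect rose between the times by log2 0.64 (SE 0.083, adjusted p = 1.22e-08, edgeR). Ciita was tested in the comparison of endoderm with mES cells alone. Nlrc5 stayed at or below 2.196 CPM in all groups.

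Interferon-response genes were higher in Hox-/- at 96 h. Of 22 listed, 20 or 21 were tested. At 96 h 20 of 21 were higher in Hox-/- and 0 lower (median log2 1.05, beside 0.03 over all genes). In endoderm 9 were higher and 1 lower (median 0.21), and at 120 h 6 and 3 (median 0.00). Isg15 was at 48.3 CPM in wt and 120 CPM in Hox-/- at 96 h (2.59-fold, adjusted p = 7.33e-29, edgeR), Oasl2 at 79.2 and 194 CPM. Gbp3 (2.11-fold) and Irgm1 (2.13-fold) rose in Hox-/- endoderm, and Bst2 fell 2.02-fold there and 4.41-fold at 120 h. From 96 h to 120 h 20 of 21 fell in wild type and 20 in Hox-/-, where 37.8% and 37.6% of all genes were lower. Igtp fell 80.9-fold in Hox-/-. Activin A gastruloids had 19 higher and 1 lower than Chiron at 96 h (median 4.42), beside 31.3% and 30.2% of all genes, with Gbp2 at 64.7 against 1.11 CPM. From mES cells to wt endoderm 17 were higher and 2 lower (median 4.62), beside 41.6% and 38.3% of all genes. Gbp2 was at the floor in mES cells and at 117 CPM in endoderm, at least 542-fold higher. Genes at the floor in mES cells passed the filter through endoderm alone, so they could be called only as higher. Oas1a ran the other way, from 51.1 CPM in wt mES cells to 11.9 CPM. Among 7 interferon receptors and kinases, 3, 2 and 2 were higher and 0, 2 and 1 lower in Hox-/- in endoderm, at 96 h and at 120 h (median log2 0.13, -0.09 and 0.11). Ifngr2 rose 3.94-fold from 96 h to 120 h in wt Activin A gastruloids.

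Over the 10 group means of log2(CPM + 0.5), the 6 class I members correlated with each other at r of 0.86 to 0.99, highest between Tap2 and Psmb8. H2-Eb1 correlated with them at -0.38 to -0.72, with H2-Ab1 at -0.11 and with Cd74 at 0.57. These are descriptions over 10 points that share libraries and depth. H2-Eb1 stood at 13.95 CPM in wt and 38.3 CPM in Hox-/- mES cells and at 1.57 CPM or less elsewhere. Its correlations, here and with the genes most like it, thus largely restate the mES levels that led to the choice of the set. The 4 genes most like H2-Eb1 among 17401 were Gm7765 (r = 0.996), Gm13929 (0.99), 2610021A01Rik (0.99) and Slfn9 (0.989). Those most like B2m were Slc22a2 (0.979), Apbb1ip (0.968), H2-T10 (0.965) and Gbp7 (0.965). Those most like Cd74 were Tmem144 (0.997), Rp2 (0.987), Rpl29 (0.973) and Myh9 (0.972).

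Genes within 500 kb of each member were counted in the comparisons between genotypes. Around H2-Eb1, 5 of 38 tested were higher and 8 lower in endoderm, 10 and 5 of 44 at 96 h, and 16 and 10 of 44 at 120 h, with median log2 changes of 0.00, 0.04 and 0.07. In endoderm both counts, and at 96 h and 120 h the counts of lower genes, were below the shares of all genes. Notch4, a neighbour in that region known from endothelium, rose 3.14-fold in Hox-/- at 120 h (adjusted p = 4.02e-18, edgeR). Around Cd74 most neighbours were higher in Hox-/-: 11 of 16 in endoderm, 16 of 19 at 96 h and 12 of 19 at 120 h, with 1, 1 and 2 lower and median log2 changes of 0.60, 0.71 and 0.60. Cdx1, a caudal homeobox gene near Cd74, was 3.05-fold higher at 96 h and 12.6-fold higher at 120 h, and Iigp1, an interferon-inducible GTPase gene, was 4.36-fold higher at 96 h and 18.2-fold lower at 120 h. Cd74 itself was not called between genotypes in endoderm and was not tested in gastruloids.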

How the data were processed

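Poly(A)-selected RNA was sequenced as stranded libraries, per the labels' protocols. The submitters' processing notes name cutadapt 1.16, STAR, Cufflinks 2.2.1 and mm10. The authors deposited whole-number counts per Ensembl gene and FPKM values per gene. The tool and strand setting behind the counts are not given in the sources used here.

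The 10 members and the related lists were chosen with earlier results of these data known. All 10 gene symbols were matched in the FPKM tables and joined to the counts by Ensembl identifier. CPM is a gene's count scaled to the library total, which ranged from 9.11 to 28.82 M. Tests used edgeR 4.0.16 under R 4.3.3 on the counts (filterByExpr, TMM scaling, 1 coefficient per group, quasi-likelihood test, Benjamini-Hochberg adjustment over all genes tested). A gene was called at an adjusted p under 0.05. The mES and endoderm counts were also fitted jointly, and each gastruloid table was fitted as a whole. H2-Eb1 was known as a leading gene of the mES comparison between genotypes, so that comparison and its difference from the endoderm comparison were not tested, and no p is given for H2-Eb1 between mES cells and endoderm. Groups whose libraries all held 3 counts or fewer are at the floor (0.104 to 0.329 CPM), and folds against them are lower bounds computed at the group's mean floor. The floors cover counting error only, while the SE values include the spread between libraries.

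Named genes are all members; from the related lists, in each comparison and direction, the 3 called genes of lowest p with a change of 2-fold or more and no overlap between the groups' libraries (interactions needed the call alone); the 4 genes most correlated with each of H2-Eb1, B2m and Cd74; and neighbours within 500 kb called at 2-fold or more between genotypes. Not all genes these rules pick are described, and 1 is not reported here. The alternatives were RLE size factors, total counts alone, no filter, a minimum of 10 counts per library, DESeq2 1.42.0, the replicate number as a block, thinned counts, fits on the compared groups alone, limma 3.58.1 on log2(FPKM + 1) and log2(FPKM + 0.1), and each library left out. TMM factors for the mES ratios and all alternatives for the Hox check were chosen after seeing the data. The tests were also run on simulated counts with the same spread set for every gene. That check does not cover genes or libraries that vary more. The 4 wild-type Activin A gastruloid libraries are held identically in both gastruloid tables and were counted once per fit.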

Additional observations from a re-analysis of the deposited data

Results flagged for a closer look

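The first 4 members are listed because the effect of genotype in Activin A gastruloids differed between 96 h and 120 h, tested as an interaction with edgeR. On the log2 scale the difference (120 h minus 96 h) was -1.27 for H2-D1, -1.24 for H2-K1, -0.68 for B2m and -0.68 for Tap2 (adjusted p = 2.65e-08, 6.26e-14, 4.84e-05 and 0.0337). Another 3 values are listed because the difference between Activin A and Chiron gastruloids of wild type changed between the same times: -1.94 for Tap2, -1.21 for H2-D1 and -0.66 for Tap1 (adjusted p = 0.00114, 1.56e-06 and 0.00998). Depth moved with time in both cases. With counts thinned to the smallest library all 7 were called, with adjusted p up to 0.0342 (Tap2, genotype by time).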

How the results depend on the processing

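Of 832 values of members under the planned settings, 790 kept their direction and side of the threshold, 27 lost a call, 11 gained one and 4 reversed; of 452 with a library left out the numbers were 419, 22, 1 and 10. Replicate numbers did not pair the samples (correlations of deviations from -0.0701 to 0.1058); with the replicate block the members called were 6 in endoderm, 7 at 96 h and 4 at 120 h between genotypes, as without it, the mES log2 ratio of H2-Eb1 was 1.46, and no member's call changed. Total counts alone shifted the median of all genes by -0.11 (Activin A genotypes at 120 h), 0.12 (wild-type mES to endoderm) and 0.10 (Chiron, 96 h to 120 h), with the same numbers of members called in each direction.

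With limma on either FPKM scale 3 members (against 6) were called between genotypes in endoderm, and on log2(FPKM + 0.1) 3 (against 7) at 96 h. With at least 10 counts in every library, which tests fewer genes, 3 (against 5) and 1 (against 3) were called against Chiron at 96 h and 120 h, and 5 from mES to endoderm in wild type (against 8) and in Hox-/- (against 9). The 8 and 9 include H2-Eb1, whose level in mES cells led to the choice of the set. Over the 3 comparisons between genotypes, calls in the list of other class I genes were 6 with at least 10 counts, 8 with DESeq2, 9 and 9 on FPKM (against 16), in peptide loading 5 and 5 on FPKM (against 8), and in interferon receptors and kinases 6 with DESeq2 (against 10). The mES log2 ratio of H2-Eb1 was 1.31 and 1.39 on log2(FPKM + 1) and log2(FPKM + 0.1), and 1.42 to 1.5 with a library left out.

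Values that reversed were not called: H2-D1 in endoderm 0.0 and B2m against Chiron at 120 h -0.03 when thinned, H2-Ab1 for genotype by time -0.09 on log2(FPKM + 1), and H2-Ab1 over time in Chiron 0.04 with total counts. With a library left out the log2 ranges that crossed 0 were H2-D1 -0.06 to 0.04 and Cd74 -0.23 to 0.06 in endoderm, Tap2 -0.36 to 0.1 between genotypes at 120 h, B2m -0.11 to 0.15 against Chiron at 120 h, B2m -0.17 to 0.09 and H2-K1 -0.32 to 0.03 for treatment by time, H2-Ab1 -0.13 to 0.05 over time in Chiron and -0.01 to 0.63 from wild-type mES to endoderm, and in mES cells H2-K1 -0.1 to 0.02, Tap1 -1.23 to 0.03 and Tap2 -1.72 to 0.3. Calls for treatment by time ran from 1 to 3. The cause of these changes was not tested. FPKM fits were not run across the mES and endoderm tables. Where 1 library of a pair was left out, the other was assumed to vary like the remaining groups. Depth limits H2-Aa, H2-Eb1 and Cd74 in gastruloids and Psmb8 and Tap2 in mES cells.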
